A study of Arabidopsis thaliana with 2 samples.

Results

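The core cell cycle genes of Arabidopsis thaliana were followed in the suspensor and the embryo proper of the globular embryo: 59 loci. They were taken by gene identifier from the named families, not by a rule on their values, though earlier results of these data were known. They comprise 10 A-type, 9 B-type and 10 D-type cyclins, 5 cyclin-dependent kinases (CDKs), 10 CDK inhibitors (KRP1 to KRP7, SIM, SMR1 and SMR2), the kinase WEE1 with the docking subunits CKS1 and CKS2, 9 E2F, DEL, DP and RBR1 genes and 3 CCS52 genes. All 59 matched a locus tag of the reference annotation. Of the 20029 genes listed in either library, 55 were members. The suspensor library listed 53 of them and the embryo proper library 52, and CYCA3;3 (AT1G47220), CYCD7;1 (AT5G02110), KRP7 (AT1G49620) and SMR1 (AT3G10525) were in neither.

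Both libraries came from plants of the genotype Ws-0, with no transgene or treatment named in the labels, by laser capture on 5 or 7 μm sections of seeds with an embryo proper 24 to 32 μm wide. One library held the suspensor, the file of cells that anchors the embryo, and the other the embryo proper, the sphere that becomes the seedling. Each pools captured regions of an unstated number of seeds. Levels are RPKM, a read count scaled to gene length and to library size. Comparisons between genes, and sums over them, rest on the gene length used, which is not given in these sources. The suspensor library held 7189178 reads assigned to genes and the embryo proper library 12716028, a depth 1.77 times that of the suspensor, both recovered from the deposited values. Because there is 1 library per region, differences have no replicate check and are given without tests or p-values. Each interval printed after a fold is an exact 95% binomial interval on recovered reads. It covers counting error only, not the spread between samples. Because reads amplified by PCR without molecular identifiers are not independent molecules, it may be too narrow even for counting error.

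In each library the markers of the labelled region were the higher ones. All 6 suspensor markers passed 2-fold in its favour, with 440 RPKM summed in the suspensor and 33.5 RPKM in the embryo proper. WOX8 among them was at 77.2 RPKM in the suspensor and 0.241 RPKM in the embryo proper. All 5 embryo proper markers were at least 2-fold lower in the suspensor, with sums of 15.6 RPKM in the suspensor and 411 RPKM in the embryo proper, and DRNL was not listed in the suspensor. Markers of adjoining tissue were also higher in the suspensor library. Of 10 endosperm markers, 9 could be counted and 8 were at least 2-fold higher there, with sums of 178 RPKM in the suspensor and 19.7 RPKM in the embryo proper. Of 12 seed coat markers, 11 could be counted and 10 were at least 2-fold higher, with sums of 118 RPKM in the suspensor and 8.44 RPKM in the embryo proper. BAN, TT2, TT8 and TT10 were not listed in the embryo proper. Counting, on log2(RPKM + 1), took genes that reached 1 RPKM in either library. Of all genes so counted, 29.3% passed 2-fold in favour of the suspensor and 23.1% in favour of the embryo proper. WOX8 and SSP reached 1 RPKM in the suspensor alone, and CUC3, DRNL and EDE1 in the embryo proper alone. Of the endosperm markers, MEA, FIS2, IKU2 and AGL80 reached it in the suspensor alone. So did LDOX, BAN, TT2, TT8, TT10, TT12, DFR, AHA10 and STK of the seed coat. The part of these tissues in the differences described here was not tested.

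A CDK is active only when bound to a cyclin. D-type cyclins with CDKA;1 act at the entry into the cycle by phosphorylating RBR1, which releases E2F factors that switch on genes of DNA replication. A-type cyclins act from S phase onward, and B-type cyclins with the plant-specific CDKB kinases act at mitosis. KRP and SIAMESE-type proteins bind and inhibit the kinase complexes, WEE1 restrains them by phosphorylation, and CCS52 proteins direct the anaphase-promoting complex to cyclins, which can turn a dividing cell to endoreduplication, the copying of DNA without division. In the early Arabidopsis embryo the suspensor stops dividing as a short file while the embryo proper goes on dividing, and in bean species the suspensor nuclei become highly polyploid.

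Genes of mitosis are known to carry the MSA element, read by MYB3R factors, and genes of DNA replication the E2F site. The 300 bases before the annotated start of each gene were searched on both strands for the MSA core (CAACGG or TAACGG) and for the E2F site, written out as its 8 forms TTTCCCGC, TTTCCCGG, TTTCGCGC, TTTCGCGG, TTTGCCGC, TTTGCCGG, TTTGGCGC and TTTGGCGG. Neither motif contains the other. Positions and sequence are those of the RefSeq annotation and Columbia genome of the assembly TAIR10.1. The submitters' processing notes name TAIR10, the deposited files carry no positions, and the plants were Ws-0. Below are windows of members on which the results turn, 5′ to 3′ in the direction of the gene, with MSA matches in capitals. All 5 windows lie outside any other annotated gene.

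The most abundant B-type cyclin of the embryo proper, CYCB1;2 (chr5:1861704-1862003, minus strand), and the B-type cyclin with the widest difference, CYCB1;3 (chr3:3627274-3627573, minus strand), are shown first for their MSA matches.
CYCB1;2: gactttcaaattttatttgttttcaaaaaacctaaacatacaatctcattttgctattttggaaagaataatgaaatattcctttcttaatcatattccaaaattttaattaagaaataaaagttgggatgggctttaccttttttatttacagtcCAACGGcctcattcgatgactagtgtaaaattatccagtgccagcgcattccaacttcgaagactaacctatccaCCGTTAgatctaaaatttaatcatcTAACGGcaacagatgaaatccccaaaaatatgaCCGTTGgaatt
CYCB1;3: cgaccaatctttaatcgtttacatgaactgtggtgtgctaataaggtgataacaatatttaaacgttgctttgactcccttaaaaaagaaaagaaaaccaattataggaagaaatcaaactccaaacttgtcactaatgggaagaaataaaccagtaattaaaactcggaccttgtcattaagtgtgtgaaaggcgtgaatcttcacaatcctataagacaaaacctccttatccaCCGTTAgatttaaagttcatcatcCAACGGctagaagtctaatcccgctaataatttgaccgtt

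The leading D-type cyclin of the suspensor follows, CYCD4;2 (chr5:3282554-3282853, minus strand), in which neither motif was found.
CYCD4;2: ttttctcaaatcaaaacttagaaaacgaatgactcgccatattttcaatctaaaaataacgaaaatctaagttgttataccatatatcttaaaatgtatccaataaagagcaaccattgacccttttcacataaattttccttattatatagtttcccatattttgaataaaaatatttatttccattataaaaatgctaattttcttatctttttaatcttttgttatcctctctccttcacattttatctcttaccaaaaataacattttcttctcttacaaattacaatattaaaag

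The leading KRP inhibitor of each region closes the set, KRP5 for the suspensor (chr3:9060536-9060835, plus strand) and KRP3 for the embryo proper (chr5:19794481-19794780, minus strand), the second with 1 MSA match.
KRP5: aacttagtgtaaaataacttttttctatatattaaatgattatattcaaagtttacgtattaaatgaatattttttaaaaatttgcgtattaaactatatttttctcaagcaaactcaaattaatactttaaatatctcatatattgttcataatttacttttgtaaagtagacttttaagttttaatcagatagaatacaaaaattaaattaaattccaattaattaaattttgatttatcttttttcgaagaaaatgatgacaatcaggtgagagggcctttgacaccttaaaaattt
KRP3: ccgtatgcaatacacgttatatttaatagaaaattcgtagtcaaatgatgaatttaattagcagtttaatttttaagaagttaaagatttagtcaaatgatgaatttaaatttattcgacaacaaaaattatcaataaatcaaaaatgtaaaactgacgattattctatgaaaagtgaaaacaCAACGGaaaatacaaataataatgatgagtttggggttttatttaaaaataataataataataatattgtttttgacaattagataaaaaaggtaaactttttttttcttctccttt

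An MSA core was found in 7 of 9 B-type cyclin windows, 77.8%, against 12.4% of the windows of 27443 nuclear protein-coding genes. CYCB1;4 and CYCB3;1 were the B-type cyclins without one. CYCB1;2 held 4 matches, CYCB2;2 and CYCB2;3 held 3 each and CYCB1;3 held 2, at 64 and 40 bases before the start. Among CDKB kinases 1 of 4 windows, that of CDKB2;2, held a match, and among D-type cyclins 0 of 10. CDK inhibitors held one in 5 of 10 windows, those of KRP1, KRP2, KRP3, KRP7 and SMR2, and all members in 18 of 59, 30.5%. For the E2F site the count was 6 of 59 members, 10.2%, against 3.20% of all windows. Of the 28 members at least 2-fold lower in the suspensor, 10 held an MSA core and 2 an E2F site. Of the 9 at least 2-fold higher, 2 held an MSA core (KRP2 and SMR2) and 0 an E2F site. Of the 17 within 2-fold, 4 held an MSA core and 4 an E2F site. A match describes letters in a window and does not show that a factor binds there. Of the member windows, 7 overlapped another annotated gene. CYCD3;1 and CKS2 had 300 such bases each, CDKB1;1 213 bases, RBR1 197 bases, CDKB2;1 194 bases and CYCB3;1 40 bases. The CCS52B window overlapped both AT5G13850 and AT5G02115. The RBR1 window was among the 6 with an E2F site.

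Across the whole set the suspensor library held less cell cycle transcript. The 59 members summed to 816 RPKM in the suspensor and 1617 RPKM in the embryo proper, 1.98 times lower in the suspensor. Of the 54 members that reached 1 RPKM in either library, 9 were higher in the suspensor by 2-fold or more, 28 were lower by as much and 17 lay in between. These counts are on the scale of log2(RPKM + 1), which makes differences of low genes look smaller. That is 16.7% higher and 51.9% lower, where 29.3% of all 16975 genes counted the same way were higher and 23.1% lower. At 4-fold there were 3 members higher and 17 lower, 5.56% and 31.5%, with 12.3% and 8.32% among all genes. The median log2 ratio of the members was -1.06 and that of all genes 0.13. Among the higher members, KRP2, SIM, SMR2 and CCS52A1 reached 1 RPKM in the suspensor alone. Among the lower members, CYCA2;3, CYCB2;1, CYCD3;1, CYCD5;1 and KRP6 reached it in the embryo proper alone. In bulk tissue, fewer dividing cells, less of these transcripts per cell and RNA from adjoining tissue cannot be told apart.

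**Figure D1:**
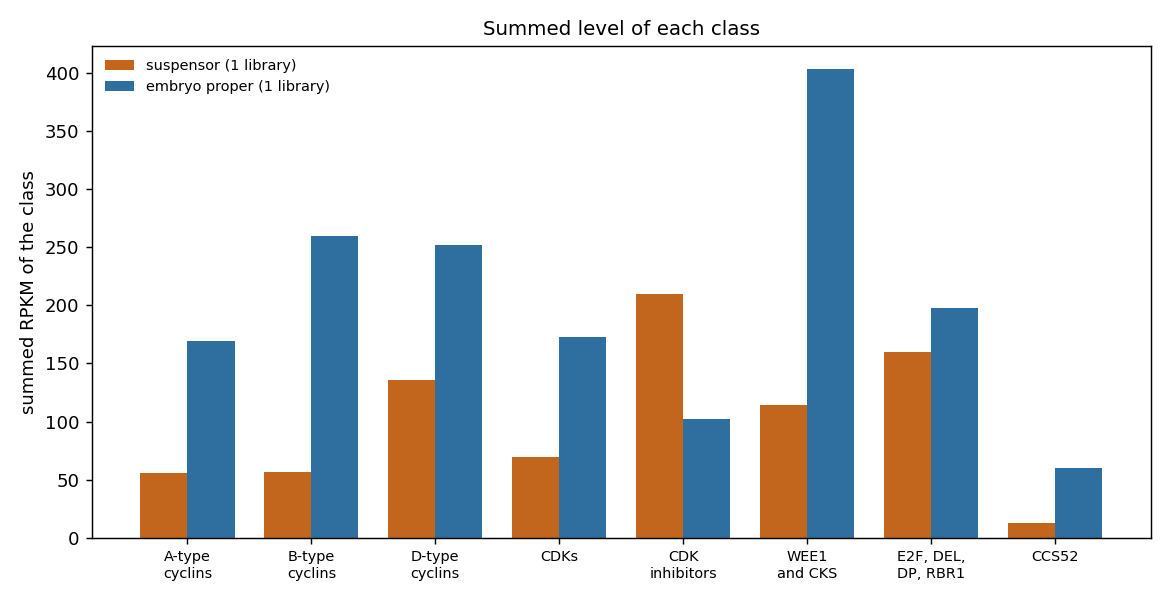
Bars give the summed RPKM (vertical axis, from 0) of each class of cell cycle gene in the 1 suspensor library (left bar of each pair) and the 1 embryo proper library (right bar). CDK inhibitors, here the 10 chosen members without other SIAMESE-type genes, are the class with the higher suspensor bar, 210 against 102 RPKM. Of this, KRP5 alone gives 180 RPKM in the suspensor and 28.8 RPKM in the embryo proper. B-type cyclins stand at 57.0 against 260 RPKM.

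By class, the summed level was lower in the suspensor for the B-type cyclins (4.56 times), the CCS52 genes (4.67 times), WEE1 with the CKS genes (3.53 times), the A-type cyclins (3.02 times), the CDKs (2.49 times) and the D-type cyclins (1.85 times). The E2F, DEL, DP and RBR1 genes were closest to level, with 160 RPKM in the suspensor and 197 RPKM in the embryo proper. CDK inhibitors went the other way, with 210 RPKM in the suspensor and 102 RPKM in the embryo proper, 2.05 times higher, a direction that rests on KRP5. Without that gene the class summed to 29.7 RPKM in the suspensor and 73.7 RPKM in the embryo proper, 2.48 times lower. The CCS52 direction likewise rests on CCS52B, without which the class summed to 7.24 RPKM in the suspensor and 4.62 RPKM in the embryo proper. As a share of all member transcript, inhibitors, KRP5 included, made up 25.8% in the suspensor but 6.34% in the embryo proper. B-type cyclins made up 6.99% in the suspensor but 16.1% in the embryo proper. The inhibitor class holds SIM, SMR1 and SMR2 but no other SIAMESE-type gene, so its higher suspensor sum describes the 10 chosen members only. Among those left out, SMR4 (67.9 RPKM), SMR7 (8.39 RPKM) and AT5G40460 (49.2 RPKM) had their higher level in the embryo proper. In the suspensor they stood at 5.72 RPKM, 0.927 RPKM and unlisted. AT5G02420 was listed in the suspensor alone, at 12.4 RPKM, and SMR5 and AT1G10690 stayed below 1 RPKM.

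**Figure D2:**
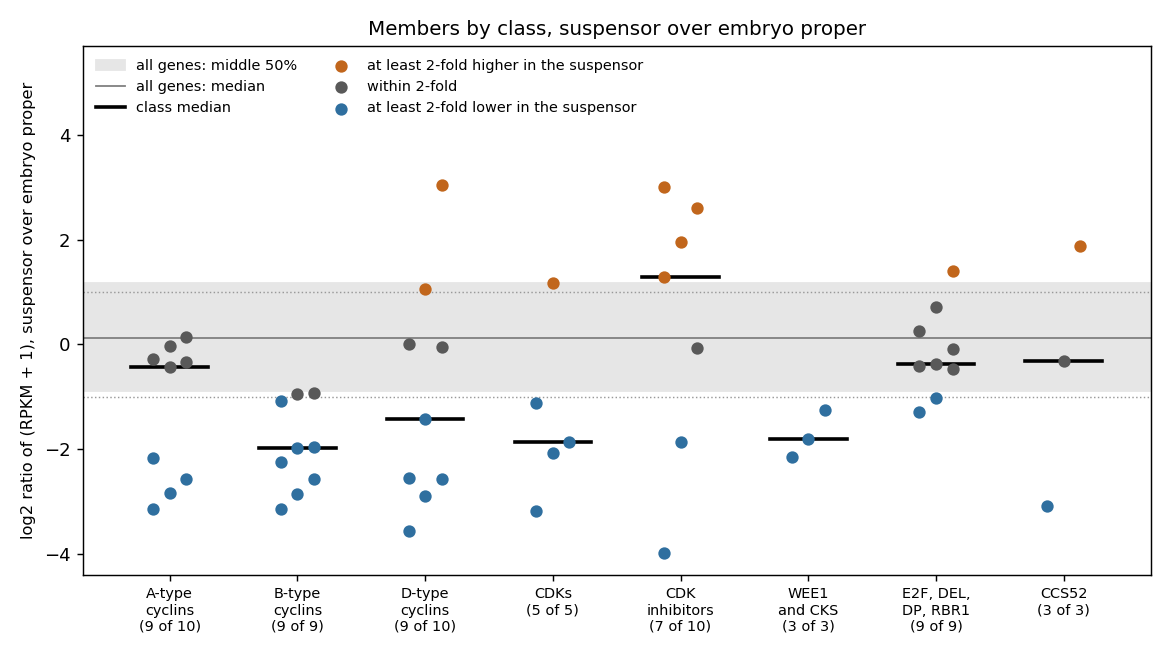
Each point is a member that reached 1 RPKM in either library, placed by its log2 ratio of (RPKM + 1), suspensor over embryo proper (vertical axis). Columns are classes, with members counted of members in all, black bars are class medians, and the grey band and line give the middle 50% (-0.90 to 1.18) and median (0.13) of all genes. B-type cyclins lie wholly below 0, while CDK inhibitors reach from -3.98 for KRP3 to 3.01 for KRP2.

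D-type cyclins were divided between the regions by subgroup. The 3 CYCD3 genes, which keep cells in mitotic cycles and respond to cytokinin, summed to 29.1 RPKM in the suspensor and 195 RPKM in the embryo proper. The CYCD4 pair summed to 86.2 RPKM in the suspensor and 17.4 RPKM in the embryo proper. The CYCD4 to CYCD3 ratio was thus 2.96 within the suspensor library and 0.0888 within the embryo proper library, a comparison that no scaling between libraries affects.

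CYCD4;2 (AT5G10440), a D-type cyclin that lacks the usual RBR1-binding motif and acts in stomatal lineage divisions of the hypocotyl, stood at 63.0 RPKM in the suspensor and 6.75 RPKM in the embryo proper. It was 9.33-fold higher in the suspensor (7.29 to 12.1), was the most abundant cyclin of any type there, and made up 46.3% of the suspensor D-type total and 2.68% of that of the embryo proper. Its paralogue CYCD4;1 (AT5G65420) was at 23.3 RPKM in the suspensor and 10.6 RPKM in the embryo proper, 2.19-fold higher (1.73 to 2.79). The fold was 1.98 with libraries scaled to a median log2 ratio of 0 and 2.01 when scaled by the upper quartile. Under both scalings CYCD4;1 is no longer counted as higher on the log2(RPKM + 1) scale. The coding sequences of the pair share runs of at most 37 identical bases, and the treatment of reads with several matches is not given in these sources.

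CYCD3;3 (AT3G50070) was the most abundant cyclin of the embryo proper, at 25.5 RPKM in the suspensor and 157 RPKM in the embryo proper, 6.15 times lower in the suspensor (5.32 to 7.15). CYCD3;2 (AT5G67260) stood at 3.40 RPKM in the suspensor and 24.9 RPKM in the embryo proper, 7.31 times lower (4.99 to 10.9). CYCD3;1 (AT4G34160) was at 0.246 RPKM in the suspensor, with 2 reads behind it, and at 13.7 RPKM in the embryo proper, 55.7 times lower (15.2 to 463). All 3 genes of the subgroup thus had the same direction, with the embryo proper higher.

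CYCD6;1 (AT4G03270), which drives the formative division of the root ground tissue under SHORT-ROOT and SCARECROW, was at 1.38 RPKM in the suspensor and 16.7 RPKM in the embryo proper, 12.1 times lower (6.26 to 26.9). An exon of AT4G03260 on the opposite strand covers 25.3% of its coding length, and that gene stood at 14.1 RPKM in the suspensor and 10.8 RPKM in the embryo proper. Whether the authors' counting used strand is not given in these sources. CYCD5;1 (AT4G37630) was at 0.859 RPKM in the suspensor, from 6 reads, and 3.96 RPKM in the embryo proper. CYCD2;1 (AT2G22490) and CYCD1;1 (AT1G70210) were level, the first at 14.4 RPKM in both regions and the second at 4.09 RPKM in the suspensor and 4.32 RPKM in the embryo proper. CYCD7;1, known from the last division of guard mother cells, was not listed in either.

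**Figure D3:**
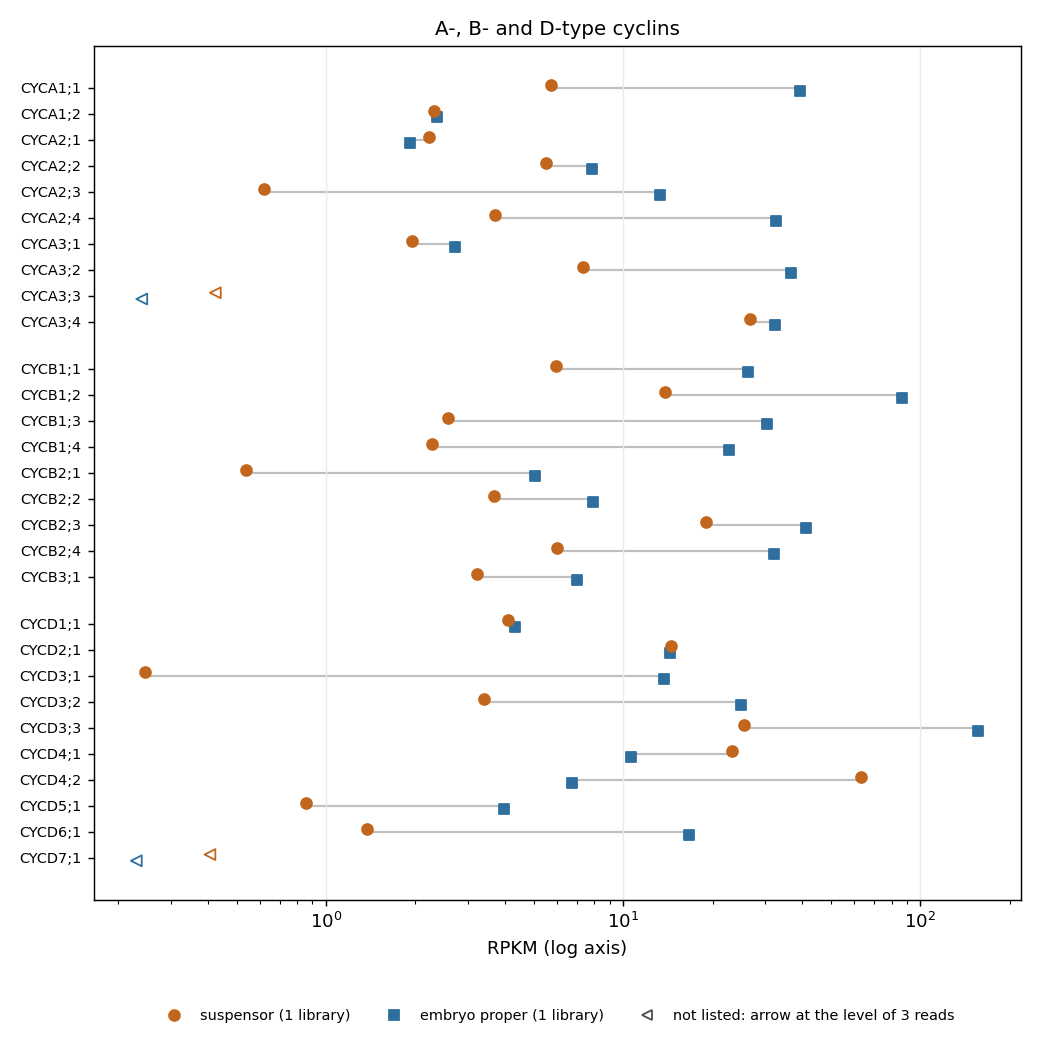
Levels of the A-, B- and D-type cyclins in RPKM on a log axis, with circles for the 1 suspensor library and squares for the 1 embryo proper library. Lines join the values of a gene listed in both, and open arrows mark a gene not listed, at the level 3 reads would give. Squares lie right of circles for every B-type cyclin, and CYCD4;1 and CYCD4;2 are the widest pairs with the circle on the right.

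A-type cyclins divided into genes well below their embryo proper level and genes near it, with 4 of 9 counted members at least 4-fold lower in the suspensor and the other 5 within 2-fold, where 8.32% of all genes were at least 4-fold lower and 47.6% within 2-fold. CYCA2;3 (AT1G15570), which with CDKB1;1 restrains the switch to endoreduplication, stood at 0.617 RPKM in the suspensor, from 6 reads, and 13.3 RPKM in the embryo proper, 21.6 times lower (9.76 to 59.4). CYCA2;4 (AT1G80370), of the same subgroup, was at 3.71 RPKM in the suspensor and 32.6 RPKM in the embryo proper, 8.79 times lower (6.30 to 12.6). CYCA1;1 (AT1G44110) had the highest A-type level of the embryo proper, at 5.73 RPKM in the suspensor and 39.3 RPKM in the embryo proper, 6.86 times lower (5.24 to 9.16).

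The CYCA2 subgroup was not uniform. CYCA2;2 (AT5G11300) stood at 5.52 RPKM in the suspensor and 7.86 RPKM in the embryo proper, and CYCA2;1 (AT5G25380) at 2.22 RPKM in the suspensor and 1.92 RPKM in the embryo proper, the interval of its fold running from 0.636 to 2.08. CYCA1;2 (AT1G77390), known for its part in meiosis, was at 2.30 RPKM in the suspensor and 2.37 RPKM in the embryo proper.

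The CYCA3 genes, associated with S phase, differed although CYCA3;2, CYCA3;3 and CYCA3;4 lie side by side on chromosome 1 with no annotated gene between them. CYCA3;2 (AT1G47210) was at 7.33 RPKM in the suspensor and 36.8 RPKM in the embryo proper, 5.01 times lower (3.82 to 6.68). CYCA3;4 (AT1G47230), at the other end of the row, was at 26.6 RPKM in the suspensor and 32.4 RPKM in the embryo proper, 1.22 times lower (1.03 to 1.44), and made up 47.5% of the suspensor A-type total and 19.2% of that of the embryo proper. CYCA3;3 between them was not listed in either library, where 3 reads would have given 0.424 RPKM in the suspensor. CYCA3;1 (AT5G43080), which lies elsewhere, stood at 1.95 RPKM in the suspensor and 2.72 RPKM in the embryo proper.

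Every B-type cyclin was lower in the suspensor than in the embryo proper, 7 of 9 by at least 2-fold and 4 by at least 4-fold on the log2(RPKM + 1) scale, with a median log2 ratio of -1.98. Of all genes, 23.1% were at least 2-fold lower and 8.32% at least 4-fold lower. The 4 B1-type genes summed to 24.6 RPKM in the suspensor and 166 RPKM in the embryo proper, 6.77 times lower. CYCB1;2 (AT5G06150), the mitotic cyclin with the 4 MSA matches printed above, led them at 13.8 RPKM in the suspensor and 87.0 RPKM in the embryo proper, 6.30 times lower (5.27 to 7.58). CYCB1;3 (AT3G11520) stood at 2.57 RPKM in the suspensor and 30.5 RPKM in the embryo proper, 11.9 times lower (7.82 to 18.9). CYCB1;4 (AT2G26760) was at 2.27 RPKM in the suspensor and 22.7 RPKM in the embryo proper, 9.996 times lower (6.30 to 16.8), without an MSA core in its window. CYCB1;1 (AT4G37490), the usual reporter of cells in G2 and mitosis, was at 5.94 RPKM in the suspensor and 26.3 RPKM in the embryo proper, 4.42 times lower (3.33 to 5.96).

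The B2 group ran from a narrow to a wide difference. CYCB2;3 (AT1G20610) had the highest B-type level of the suspensor, at 19.0 RPKM in the suspensor and 41.3 RPKM in the embryo proper, 2.18 times lower (1.84 to 2.59). CYCB2;4 (AT1G76310) was at 6.01 RPKM in the suspensor and 32.2 RPKM in the embryo proper, 5.35 times lower (4.07 to 7.06). CYCB2;1 (AT2G17620) rested on 5 reads in the suspensor, at 0.539 RPKM there and 5.06 RPKM in the embryo proper. CYCB2;2 (AT4G35620) and CYCB3;1 (AT1G16330) were 2.16 and 2.17 times lower as plain ratios, and did not reach 2-fold once 1 RPKM was added to each value.

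Among the kinases, CDKA;1 and the CDKB genes had opposite directions. CDKA;1 (AT3G48750), the kinase that serves both entry into S phase and mitosis, stood at 34.4 RPKM in the suspensor and 14.8 RPKM in the embryo proper, 2.33-fold higher (1.90 to 2.87). The 4 CDKB kinases summed to 34.8 RPKM in the suspensor and 158 RPKM in the embryo proper. Within a library, CDKA;1 transcript was 0.990 times the CDKB sum in the suspensor and 0.0936 times in the embryo proper.

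CDKB1;2 (AT2G38620) had the widest difference of the kinases, at 3.42 RPKM in the suspensor and 39.3 RPKM in the embryo proper, 11.5 times lower (7.57 to 18.3). An exon of AT2G38630 on the opposite strand covers 6.52% of its coding length, and that gene was at 4.86 RPKM in the suspensor and 18.2 RPKM in the embryo proper. Its near twin CDKB1;1 (AT3G54180) was at 6.43 RPKM in the suspensor and 30.3 RPKM in the embryo proper, 4.71 times lower (3.42 to 6.62). The coding sequences share a run of 41 identical bases and 6.84% of the 25-base words of CDKB1;1, the most of any pair of members. CDKB2;1 (AT1G76540), a kinase of G2 and mitosis needed in the shoot meristem, was the most abundant CDKB gene of both regions, at 20.5 RPKM in the suspensor and 77.4 RPKM in the embryo proper, 3.77 times lower (3.15 to 4.54). CDKB2;2 (AT1G20930) stood at 4.40 RPKM in the suspensor and 10.7 RPKM in the embryo proper, 2.43 times lower (1.62 to 3.75).

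The KRP inhibitors were led by a different gene in each region. KRP5 (AT3G24810), which promotes endoreduplication and elongation in the hypocotyl, stood at 180 RPKM in the suspensor and 28.8 RPKM in the embryo proper, 6.25-fold higher (5.36 to 7.33). It was the most abundant of all members in the suspensor and held 87.7% of the suspensor KRP total and 28.1% of that of the embryo proper. KRP3 (AT5G48820) stood at 2.50 RPKM in the suspensor, from 13 reads, and 54.2 RPKM in the embryo proper, 21.7 times lower (12.5 to 41.0), and held 1.22% of the suspensor KRP total and 52.8% of that of the embryo proper. The KRP5 to KRP3 ratio was 72.1 within the suspensor library and 0.532 within the embryo proper library.

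KRP2 (AT3G50630), an inhibitor of CDKA;1 studied in lateral root initiation, was at 7.07 RPKM in the suspensor, from 32 reads, and had no entry for the embryo proper. Set against a floor of 3 reads there, it was 18.9-fold higher, a value that leaves out the counting error of its 32 reads. KRP6 (AT3G19150), which must be degraded for germ cells to divide in pollen, was not listed in the suspensor. It stood at 2.66 RPKM in the embryo proper, from 20 reads, 3.77 times the level of 3 reads in the suspensor, again without counting error. KRP4 (AT2G32710), which sets the size at which shoot meristem cells enter S phase, was level at 15.8 RPKM in the suspensor and 16.7 RPKM in the embryo proper. KRP1 (AT2G23430) rested on 1 read in the embryo proper and was not listed in the suspensor.

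Of the SIAMESE-type members, SIM, SMR1 and SMR2, none exceeded 3 RPKM. SIM (AT5G04470), which stops mitosis in endoreduplicating trichomes, was at 1.45 RPKM in the suspensor, from 4 reads, and SMR2 (AT1G08180) at 2.90 RPKM, from 7 reads. Neither had an entry for the embryo proper. Against the level of 3 reads there, SIM was 2.36-fold and SMR2 4.13-fold higher, values that leave out the counting error of their few suspensor reads. With KRP2 and CCS52A1, SIM and SMR2 passed the filter of 1 RPKM through the suspensor alone. The median log2 ratio of the 7 inhibitors counted, 1.29, is the value of SIM. Among inhibitors that reached 10 RPKM in either library (KRP3, KRP4 and KRP5) it was -0.07, the value of KRP4. SMR1, known from the giant cells of sepals, was in neither library. Opposite-strand exons of genes absent from both libraries cover 62.0% of the coding length of SIM, 74.2% of that of SMR1 and 17.6% of that of CCS52B.

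**Figure D4:**
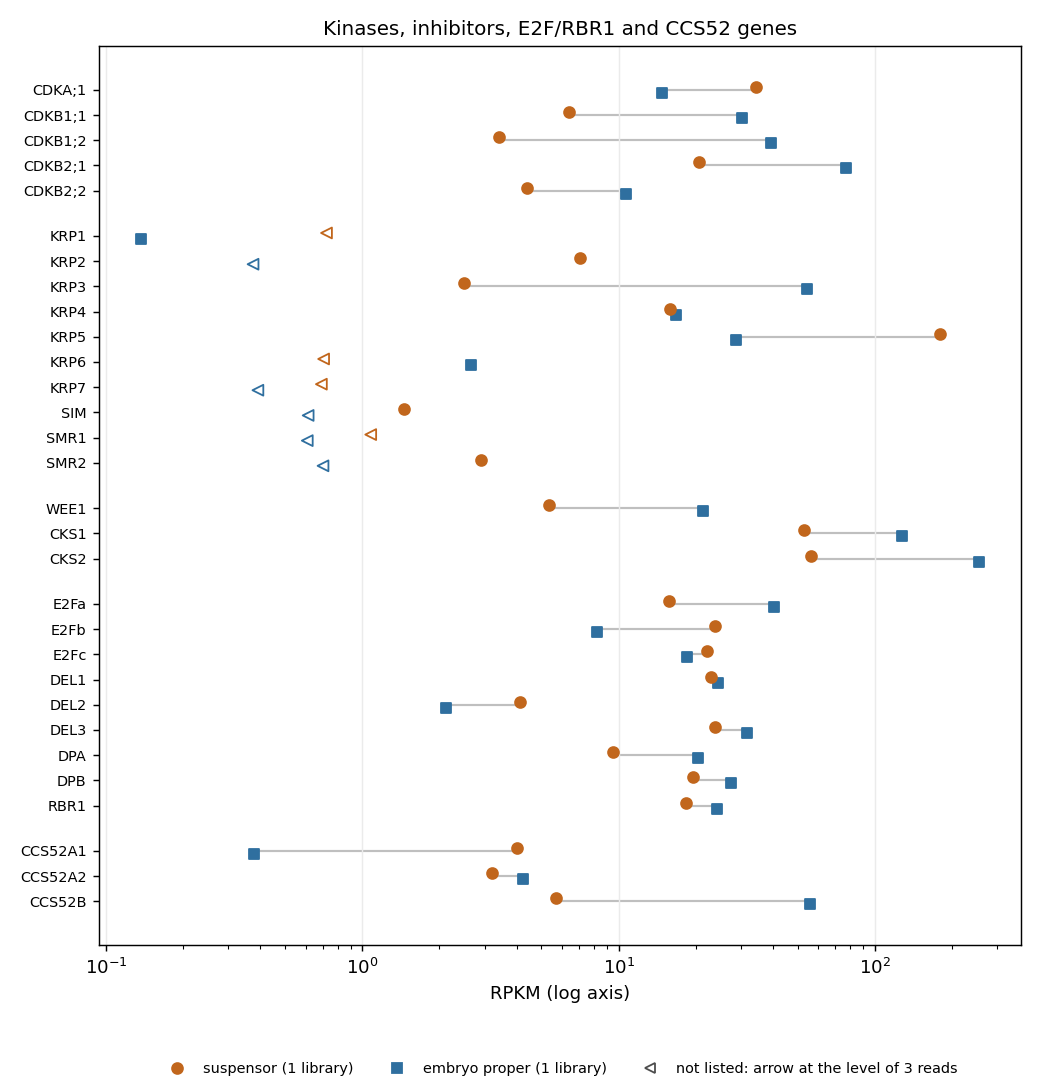
Levels of the kinases, inhibitors, WEE1 and CKS, E2F/RBR1 and CCS52 genes in RPKM on a log axis, with circles for the 1 suspensor library and squares for the 1 embryo proper library. Open arrows mark a gene not listed, at the level 3 reads would give. KRP5 in the suspensor (180 RPKM) and CKS2 in the embryo proper (254 RPKM) are the highest points of their libraries.

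**Figure D5:**
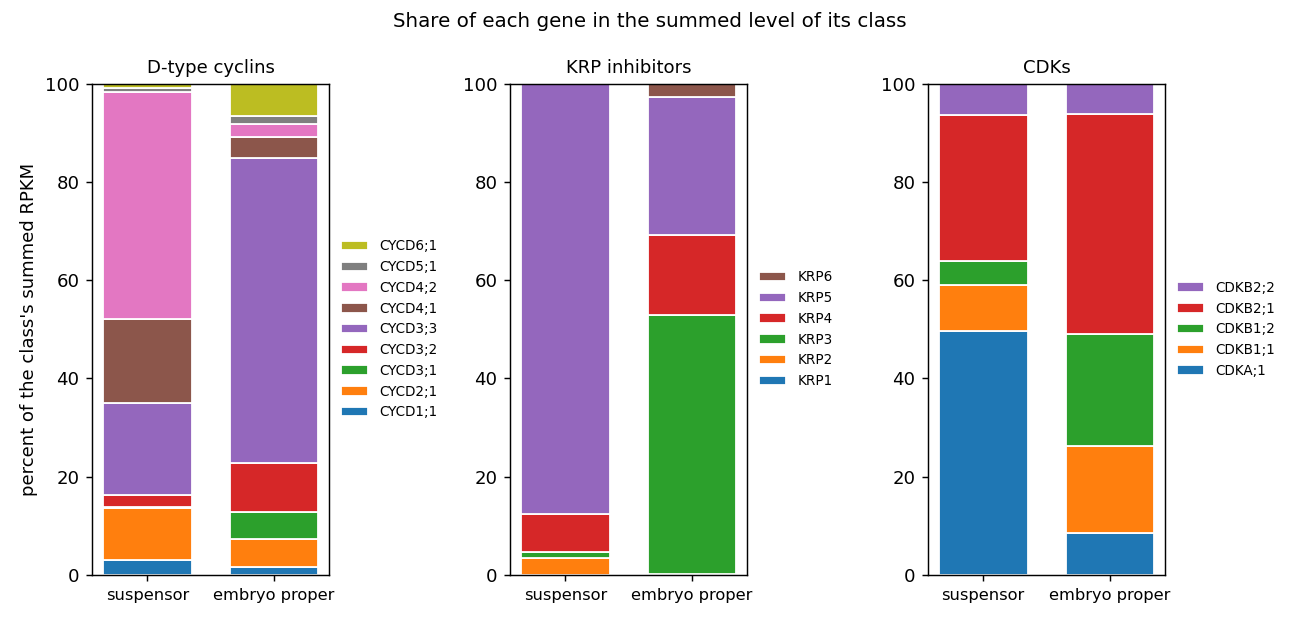
Stacked bars give the percent of the summed RPKM of the D-type cyclins, the KRP inhibitors and the CDKs that each gene held in the suspensor (left) and the embryo proper (right), 1 library each. The largest share is CYCD4;2 (46.3%), KRP5 (87.7%) and CDKA;1 (49.7%) in the suspensor, and CYCD3;3 (62.2%), KRP3 (52.8%) and CDKB2;1 (44.9%) in the embryo proper.

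WEE1 and the CKS genes were lower in the suspensor. WEE1 (AT1G02970), the kinase of the replication checkpoint, was at 5.37 RPKM in the suspensor and 21.3 RPKM in the embryo proper, 3.97 times lower (3.01 to 5.32). CKS2 (AT2G27970) had the highest level of any member in the embryo proper, at 56.3 RPKM in the suspensor and 254 RPKM in the embryo proper, 4.51 times lower (3.67 to 5.60). Its neighbour CKS1 (AT2G27960), 348 bases away on chromosome 2, was at 52.7 RPKM in the suspensor and 128 RPKM in the embryo proper, 2.42 times lower (1.95 to 3.05). The CKS pair thus stood near each other in the suspensor, whereas CKS2 held 66.5% of their sum in the embryo proper.

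Of the E2F, DEL, DP and RBR1 genes 6 of 9 were within 2-fold, as were 47.6% of all genes. RBR1 (AT3G12280), the retinoblastoma protein that holds E2F factors in check, was at 18.2 RPKM in the suspensor and 24.1 RPKM in the embryo proper, 1.32 times lower (1.18 to 1.49). The E2F activators went opposite ways: E2Fa (AT2G36010) stood at 15.8 RPKM in the suspensor and 40.4 RPKM in the embryo proper, 2.56 times lower (2.17 to 3.03). E2Fb (AT5G22220) was at 23.7 RPKM in the suspensor and 8.26 RPKM in the embryo proper, 2.87-fold higher (2.33 to 3.54). The E2Fa to E2Fb ratio was 0.666 within the suspensor library and 4.89 within the embryo proper library. E2Fc (AT1G47870), the repressing family member, was at 22.2 RPKM in the suspensor and 18.4 RPKM in the embryo proper, an interval of 0.996 to 1.45 for the fold.

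Of the dimer partners, DPA (AT5G02470) was at 9.50 RPKM in the suspensor and 20.5 RPKM in the embryo proper, 2.16 times lower (1.62 to 2.92). DPB (AT5G03415) was at 19.6 RPKM in the suspensor and 27.4 RPKM in the embryo proper. The DEL genes, atypical E2F proteins that bind DNA without a partner, were all within 2-fold, as were 47.6% of all genes. DEL1 (AT3G48160), which keeps cells from endoreduplicating, stood at 23.0 RPKM in the suspensor and 24.4 RPKM in the embryo proper, DEL3 (AT3G01330) at 23.8 RPKM in the suspensor and 31.8 RPKM in the embryo proper, and DEL2 (AT5G14960) at 4.12 RPKM in the suspensor and 2.11 RPKM in the embryo proper.

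The CCS52 genes showed 3 patterns. CCS52A1 (AT4G22910), an activator of the anaphase-promoting complex that favours endoreduplication, was at 4.02 RPKM in the suspensor, from 42 reads, and 0.379 RPKM in the embryo proper, from 7 reads, 10.6-fold higher (4.72 to 28.0). CCS52A2 (AT4G11920), its paralogue in root meristem maintenance, was at 3.21 RPKM in the suspensor and 4.24 RPKM in the embryo proper. CCS52B (AT5G13840), which is transcribed around mitosis, was at 5.68 RPKM in the suspensor and 55.6 RPKM in the embryo proper, 9.80 times lower (7.54 to 13.0). It held 44.0% of the suspensor class total and 92.3% of that of the embryo proper.

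Other genes of the pathway were taken from lists by locus, and their counts stand beside the 29.3% of all genes that were at least 2-fold higher and the 23.1% at least 2-fold lower. Of 15 genes for replication licensing and nucleotide supply, 9 were at least 2-fold lower in the suspensor and 0 higher by as much, with a median log2 ratio of -1.28. PCNA2 (AT2G29570), the replication clamp, had the widest difference, at 41.6 RPKM in the suspensor and 330 RPKM in the embryo proper. TSO2 (AT3G27060), a subunit of ribonucleotide reductase, had the highest level of both regions, at 73.5 RPKM in the suspensor and 414 RPKM in the embryo proper, while ORC1A (AT4G14700) of the origin recognition complex was at 15.1 RPKM in the suspensor and 8.12 RPKM in the embryo proper.

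Of 5 mitotic kinase and checkpoint genes, 4 were at least 2-fold lower in the suspensor and 0 higher, with a median log2 ratio of -2.45. MAD2 (AT3G25980), of the spindle checkpoint, was at 44.2 RPKM in the suspensor and 260 RPKM in the embryo proper, and the Aurora kinase gene AUR3 (AT2G45490) was level at 15.1 RPKM in the suspensor and 15.7 RPKM in the embryo proper. BUBR1 (AT2G33560), of the same checkpoint, was at 5.14 RPKM in the suspensor and 35.0 RPKM in the embryo proper.

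The anaphase-promoting complex list, with its activators and inhibitors, had 6 of 14 genes at least 2-fold lower in the suspensor and 1 higher, with 23.1% and 29.3% among all genes. UVI4 (AT2G42260), an inhibitor of the complex that restrains endoreduplication by acting on CCS52A1, was at 2.14 RPKM in the suspensor and 28.8 RPKM in the embryo proper, 13.5 times lower (7.60 to 26.4). The gene that was higher was CDC27a (AT3G16320), a paralogue of HBT in the subunit 3 position, at 5.10 RPKM in the suspensor and 0.511 RPKM in the embryo proper. HBT (AT2G20000) itself was at 7.41 RPKM in the suspensor and 12.7 RPKM in the embryo proper. APC11 (AT3G05870), the RING subunit, had the highest level of both regions, at 113 RPKM in the suspensor and 139 RPKM in the embryo proper.

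The remaining lists differed less or were small. Of 5 CDK-activating kinase and cyclin H genes, 1 was at least 2-fold lower in the suspensor and 0 higher, a share of lower genes near the 23.1% of all genes. In the list of MYB3R factors and their partners, 1 of 8 was at least 2-fold higher in the suspensor, ALY1 (AT5G27610), at 23.9 RPKM in the suspensor and 9.44 RPKM in the embryo proper. The 1 lower gene was MYB3R4 (AT5G11510), an activator of mitotic genes through the MSA element, at 2.46 RPKM in the suspensor and 9.62 RPKM in the embryo proper, 3.91 times lower (2.91 to 5.36). Among the other SIAMESE-related genes and FBL17, 3 could be counted and 2 were at least 2-fold lower, with SMR4 (AT5G02220) at 5.72 RPKM in the suspensor and 67.9 RPKM in the embryo proper, 11.9 times lower (6.12 to 26.4), and FBL17 (AT3G54650), the F-box gene that targets KRP proteins, at 15.7 RPKM in the suspensor and 18.2 RPKM in the embryo proper.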

How the data were processed

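Laser-captured suspensor and embryo proper of the globular embryo gave 1 library each, grouped by the tissue in the labels. Per the labels' protocols, 15 ng of total RNA was amplified and libraries had 15 PCR cycles. The authors deposited RPKM values, per the file headers, for genes above 0, and an unlisted gene was taken as 0. HISAT2 2.0.6, HTSeq 0.6.1 and TAIR10 are named in the submitters' processing notes. How strand, multiple matches and gene length were handled is not given in these sources. The 10 most abundant genes took 17.8% of suspensor and 8.05% of embryo proper reads.

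Reads were recovered as the smallest total at which RPKM times the longest RefSeq coding length becomes whole: 96.8% of low suspensor values and 96.7% of low embryo proper values (at least 0.2 RPKM, at most 15 reads, genes with 1 model) were within 0.05 of a whole read. The procedure was also run on simulated libraries of independent reads built with these same coding lengths, which cannot check the gene length the authors used. Ratios are suspensor over embryo proper, as log2 after a pseudocount of 1 RPKM for counts and medians, and without it for folds, and counts used genes that reached 1 RPKM in either library. Lists were matched to RefSeq symbols, and 84 of 90 loci kept. The members, lists, motifs and windows were chosen with earlier results of these data known. All members could be named, with full values for class leaders, wide or contrary differences and unlisted genes. Python 3.11.15, numpy 2.4.6 and scipy 1.17.1 were used.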

Additional observations from a re-analysis of the deposited data

How the results depend on the processing

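The 28 members at least 2-fold lower in the suspensor became 17 at a threshold of 4-fold and ran from 22 to 30 under the other alternatives. The 9 higher members became 4 with a pseudocount of 5 RPKM, 5 among genes of at least 10 RPKM and 3 at 4-fold. None of the 50 folds of members listed in both libraries left its counting interval under scaling to a median log2 ratio of 0, which multiplies suspensor values by 0.902, or by the upper quartile, which multiplies them by 0.916. Class medians of the log2 ratio moved with the pseudocount. At 0.1 RPKM they were -2.40 for B-type cyclins, -2.08 for D-type cyclins and 2.64 for CDK inhibitors. At 5 RPKM they were -1.51, -0.61 and 0.37 for the same classes and -1.34 for WEE1 and CKS. Among genes of at least 10 RPKM they were -2.58 for A-type, -2.41 for B-type and -2.55 for D-type cyclins, -3.08 for CCS52 and -0.07 for CDK inhibitors, a reversal for the last. CCS52B was the only CCS52 gene left at that filter. The inhibitors left were KRP3, KRP4 and KRP5, and the median is the value of KRP4. Without a filter the D-type median was -0.74 and the inhibitor median 0.00. The inhibitor median was 1.21 and 1.22 under median and upper quartile scaling, and 1.39 with the 10 most abundant genes left out, an alternative chosen after seeing the data. Under median scaling the summed ratios of suspensor to embryo proper were 0.298 for A-type, 0.198 for B-type and 0.487 for D-type cyclins, 1.85 for inhibitors and 0.730 for E2F, DEL, DP and RBR1. By the upper quartile they were 0.494 for D-type cyclins and 0.741 for E2F, DEL, DP and RBR1. With the member highest in the suspensor left out of each sum, also chosen after seeing the data, the ratios were 0.215 for A-type, 0.174 for B-type and 0.298 for D-type cyclins, 0.220 for CDKs and 0.389 for WEE1 and CKS, and they reversed to 0.404 for inhibitors (KRP5 out) and 1.57 for CCS52 (CCS52B out). Beyond the members left out, the causes were not tested. With 1 library per region, leaving out a replicate was not possible, and no paired analysis was possible because no replicate numbers exist. Depth limits SIM, SMR2, KRP1, CCS52A1, CYCA2;3, CYCB2;1, CYCD3;1 and CYCD5;1, which rest on 1 to 7 reads in a library where they were listed.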

Other observations

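Loci left out of the lists because the reference does not carry the intended symbol include a pair annotated as SMR3-like CDK inhibitors, singled out after their values were seen. AT5G02420 stood at 12.4 RPKM in the suspensor with no entry for the embryo proper, 18.3-fold higher against a floor of 3 reads, counting error left out. AT5G40460 was not listed in the suspensor and stood at 49.2 RPKM in the embryo proper, 40.0 times the level of 3 reads in the suspensor. SIM and SMR2 were likewise listed in the suspensor alone, whereas SMR4 stood at 5.72 RPKM in the suspensor and 67.9 RPKM in the embryo proper.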
